A study of Mus musculus with 12 samples.

Results

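The 3 PAR bZIP genes Dbp, Tef and Hlf were followed over the day in mouse liver together with Nfil3, which encodes their repressing counterpart, and with Sphk2, the gene that converges on Dbp. These 5 genes were taken by name from a table of 21490 gene symbols, and all 5 were present. The table comes from Nascent-Seq, the sequencing of RNA still attached to chromatin, which was recovered from purified liver nuclei lysed in a urea and detergent buffer and freed of polyadenylated RNA. Adult male C57BL/6 mice (3 to 6 months old) on a schedule of 12 hr light and 12 hr darkness gave the livers, with no mutant, drug or control group, so that the times of day were set against each other. Collections were made at ZT0, ZT4, ZT8, ZT12, ZT16 and ZT20 (zeitgeber time, the hours since lights on), once in each of 2 replicate series, which gave 12 libraries. Each value is exonic read coverage per base (rpbp, reads per base pair), scaled by the authors to equal depth, so that levels of different genes can be compared per length. The labels do not say which animals a library came from, so the p-values measure the spread between these libraries.

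PAR bZIP factors are basic leucine zipper proteins with a proline- and acid-rich domain that activate transcription from D-box elements, and NFIL3 (E4BP4), which lacks this domain, represses from the same elements. In liver, the CLOCK:BMAL1 complex drives Dbp through E-box elements, while REV-ERB and ROR receptors act in opposite directions on Nfil3 through ROR elements (RORE). The PAR bZIP factors in turn drive enzymes and receptors of xenobiotic and heme metabolism, and SPHK2 is a kinase that makes sphingosine-1-phosphate.

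Nascent Dbp and Tef rose in the second part of the light phase and Nfil3 was at its lowest when both were at their highest. Dbp went from 2.95 rpbp ± 0.919 at ZT0 to 46.6 ± 5.59 at ZT8, and Tef from 7.55 ± 2.62 to 48.3 ± 1.98 at the same times (mean ± SD, n = 2). Nfil3 had its lowest mean, 2.95 ± 0.495, at ZT8 and its highest, 14.0 ± 0.283, at ZT0 (SD, n = 2). Sphk2 changed less, from 11.1 ± 0.566 at ZT16 to 24.2 ± 8.63 at ZT8, and Hlf did not pass any test of a change over the day.

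**Figure D1:**
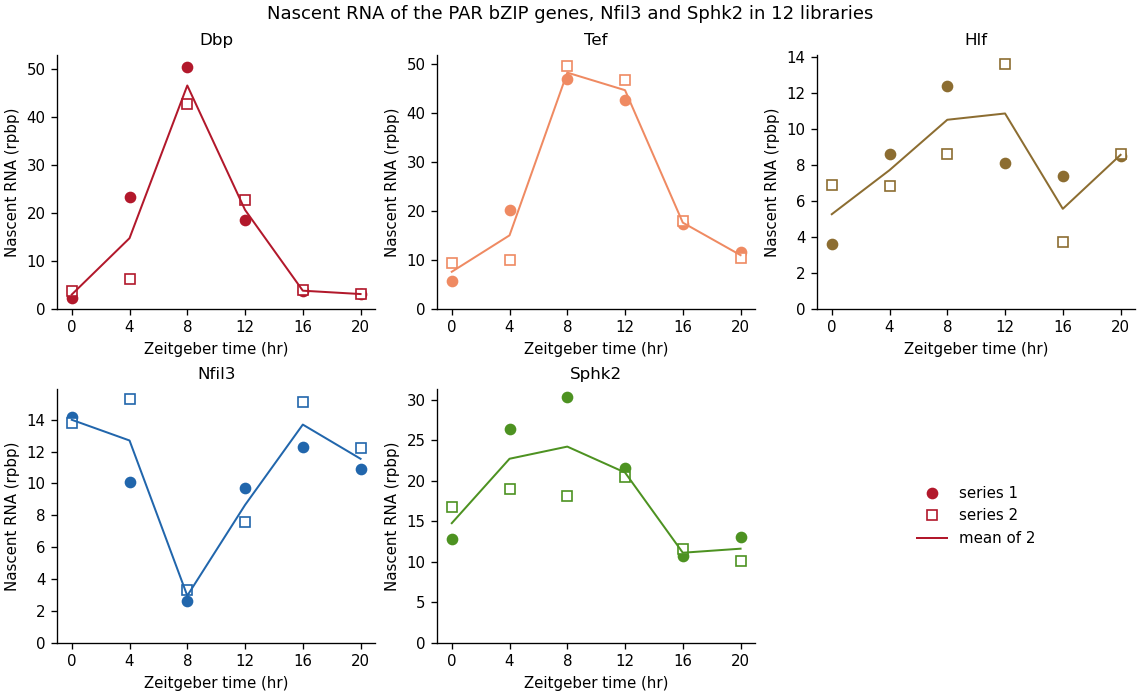
Nascent RNA (rpbp, each panel with its own axis from 0) against zeitgeber time for Dbp, Tef, Hlf, Nfil3 and Sphk2, with filled circles for series 1, open squares for series 2 and a line through the mean of 2. Dbp and Tef reach 42.6 to 50.5 rpbp at ZT8, where Nfil3 lies at 2.6 and 3.3, and the Hlf libraries overlap between all neighbouring levels.

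The rhythm of a gene was measured by F24, the share of the variance of its 12 values that is carried by a 24-hr cosine. A gene was called rhythmic at F24 above 0.45, a one-sided permutation p under 0.05 (not adjusted) and a highest value above 1.5 times the lowest, and strong at F24 above 0.6 with a larger ratio. Under this rule 4 of the 5 genes were rhythmic (Dbp, Tef, Nfil3 and Sphk2), where 15.1% of the 6284 symbols above 6 rpbp in at least 1 library were called. Dbp, Tef and Sphk2 were strong, as were 6.38% of the tested symbols. With the permutation p adjusted over all tested symbols (Benjamini-Hochberg), only Dbp stayed under 0.05, as did 0.700% of the symbols. The call of Dbp was close to the limit: without single libraries it was lost in 9 of 12 cases (adjusted permutation p between 0.0714 and 0.173) and held without ZT12 replicate 1, ZT4 replicate 2 or ZT8 replicate 2. It was also lost with 10000 permutations (0.0539), with no filter on low values (0.093) and with the lanes as a block (0.0986).

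A difference of any shape between the 6 time points was sought by limma's moderated F-test of log2(rpbp + 1), at an adjusted p under 0.05 over all tested symbols. Dbp (adjusted p = 0.00621), Tef (0.00584) and Nfil3 (0.00795) differed, where 7.65% of the symbols did. Sphk2 (adjusted p = 0.0738) and Hlf (0.244) did not pass. A 24-hr cosine fitted on the same scale passed for Dbp (adjusted p = 0.00179), Tef (0.00174) and Sphk2 (0.0348) by limma, and for 2.59% of all tested symbols, whereas Nfil3 (0.151) and Hlf (0.489) did not pass.

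Dbp encodes the albumin D-element binding protein and lies on the forward strand at chr7:52960602-52965521 (mm9). In series 1 it was at 2.3 rpbp at ZT0, 23.2 at ZT4, 50.5 at ZT8, 18.5 at ZT12, 3.7 at ZT16 and 3.1 at ZT20. In series 2 the values were 3.6, 6.2, 42.6, 22.7, 3.8 and 3.0 at the same times. Both ZT8 libraries stood above each of the other 10, which lay between 2.3 and 23.2 rpbp, and ZT16, ZT20 and ZT0 were all under 4 rpbp. The 2 libraries of ZT4 were far apart and overlapped those of ZT12, so the order of these times could not be told, and ZT20 and ZT0 did not differ beyond their spread.

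The highest Dbp library was 22.0 times the lowest, and the highest time-point mean 15.8 times the lowest. F24 was 0.733 (permutation p = 0.00013, adjusted p = 0.0355). The fitted peak-to-trough difference was 3.72 ± 0.425 (SE) on the log2(rpbp + 1) scale, larger than in 99.9% of the tested symbols, whose median was 0.393. The peak fell at 8.59 ± 0.436 hr (SE), and on linear values at 7.83 hr in series 1 alone and 9.07 hr in series 2 alone. Without either library of ZT4, F24 remained high, at 0.727 (without replicate 1) and 0.855 (without replicate 2).

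Tef encodes thyrotroph embryonic factor, and lies on the forward strand at chr15:81633247-81657293 (mm9). In series 1 its levels were 5.7, 20.1, 46.9, 42.7, 17.3 and 11.6 rpbp from ZT0 to ZT20. In series 2 they were 9.4, 9.9, 49.7, 46.7, 17.9 and 10.3 rpbp. Unlike Dbp, it was still above 42 rpbp at ZT12 and above 17 rpbp at ZT16. The ZT8 and ZT12 libraries did not overlap but lay close (46.9 to 49.7 against 42.7 to 46.7 rpbp), ZT16, ZT4 and ZT20 overlapped in turn, and ZT0 was lowest.

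Tef had the highest mean level of the 5 genes (24.0 rpbp over 12 libraries, above 91.0% of the tested symbols) and the highest F24, 0.859 (permutation p = 0.00055, adjusted p = 0.0559). The highest time-point mean was 6.40 times the lowest. The fitted peak-to-trough difference was 2.62 ± 0.285 (SE, log2) and the peak fell at 10.5 ± 0.416 hr (SE), with 9.88 hr in series 1 and 10.4 hr in series 2 on linear values.

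The 250 bases upstream of the 2 annotated Tef starts are shown because each holds the perfect E-box CACGTG, given in capitals, at -127 and -138 from the start. They were taken from RefSeq (GRCm38.p6, forward strand, 5′ to 3′).
Tef start 1, chr15:81802423-81802672: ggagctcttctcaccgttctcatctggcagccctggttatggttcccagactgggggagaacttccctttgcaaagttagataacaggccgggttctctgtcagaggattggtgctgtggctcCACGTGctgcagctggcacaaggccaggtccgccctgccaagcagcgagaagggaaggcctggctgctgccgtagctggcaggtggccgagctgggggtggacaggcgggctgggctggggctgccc
Tef start 2, chr15:81811164-81811413: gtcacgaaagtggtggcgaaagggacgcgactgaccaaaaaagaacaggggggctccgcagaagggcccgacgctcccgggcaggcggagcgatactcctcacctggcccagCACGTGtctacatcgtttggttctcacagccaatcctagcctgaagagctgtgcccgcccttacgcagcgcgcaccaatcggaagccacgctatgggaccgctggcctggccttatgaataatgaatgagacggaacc
CACGTG was found in 7.15% of 32851 RefSeq promoter windows (250 bases before to 50 after a start, both strands), the D-box (TTACGTAA or TTATGTAA) in 1.06% and the RORE (TAGGTCA or TGGGTCA) in 6.45%. The promoter windows of Dbp, Hlf and Sphk2 held none of these letters, which says nothing on the binding of a factor.

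Hlf encodes hepatic leukemia factor and lies on the reverse strand at chr11:90197849-90252231 (mm9). Its levels were 3.6, 8.6, 12.4, 8.1, 7.4 and 8.5 rpbp in series 1 from ZT0 to ZT20. In series 2 they were 6.9, 6.8, 8.6, 13.6, 3.7 and 8.6 rpbp. Every pair of neighbouring times in the order of its means overlapped, and the highest library was at ZT8 in series 1 and at ZT12 in series 2. It had the lowest mean level of the 5 genes (8.07 rpbp).

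For Hlf, F24 was 0.308 (permutation p = 0.202), and under every alternative tried it was not called. Its fitted peak-to-trough difference was 0.69 ± 0.346 (SE, log2), above 77.2% of the tested symbols, with a peak at 9.56 ± 1.92 hr (SE).

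Nfil3 lies on the reverse strand at chr13:53062578-53076408 (mm9). In series 1 it was at 14.2, 10.1, 2.6, 9.7, 12.3 and 10.9 rpbp from ZT0 to ZT20. In series 2 it was at 13.8, 15.3, 3.3, 7.6, 15.1 and 12.2 rpbp. Both ZT8 libraries were below each of the other 10, which ranged from 7.6 to 15.3 rpbp. ZT12 came next and did not overlap ZT20, whereas ZT20, ZT4, ZT16 and ZT0 overlapped in turn.

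Low Nfil3 values were thus found mainly at ZT8. F24 was 0.514 (permutation p = 0.0379, adjusted p = 0.269), and this call was lost without any of 7 single libraries, among them either library of ZT8 (permutation p = 0.101 and 0.0968). The F-test of limma, which assumes no shape, passed without any single library (F between 10.8 and 23.5). The highest time-point mean was 4.75 times the lowest, and the fitted peak was at 20.8 ± 1.09 hr (SE), with a peak-to-trough difference of 1.40 ± 0.399 (SE, log2).

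The upstream sequence of Nfil3 is shown because it holds a RORE at -12, as TGACCTA, the reverse complement of TAGGTCA (capitals). It was taken from RefSeq (GRCm38.p6, reverse strand, 5′ to 3′).
Nfil3, chr13:52981040-52981289: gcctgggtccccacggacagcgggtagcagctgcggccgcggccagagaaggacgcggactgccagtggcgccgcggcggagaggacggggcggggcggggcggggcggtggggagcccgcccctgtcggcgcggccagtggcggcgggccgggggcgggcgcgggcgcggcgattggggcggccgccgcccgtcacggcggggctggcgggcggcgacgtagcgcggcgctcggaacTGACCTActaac
In a wider window of 2000 bases on each side of the mm9 start, Nfil3 also held 2 D-boxes, the element bound by its own product and by the PAR bZIP factors, at 327 and 1243 bases after the start. They are given with their flanks on the gene strand, with the element in capitals and at the mm9 positions printed (TTACATAA is the reverse complement of TTATGTAA), beside the D-boxes of Tef at −1509 and 467.
Nfil3 D-box, chr13:53076074-53076081: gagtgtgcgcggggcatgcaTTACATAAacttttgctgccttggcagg
Nfil3 D-box, chr13:53075158-53075165: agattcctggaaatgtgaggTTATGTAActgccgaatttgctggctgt
Tef D-box, chr15:81631738-81631745: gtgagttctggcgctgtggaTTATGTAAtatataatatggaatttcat
Tef D-box, chr15:81633714-81633721: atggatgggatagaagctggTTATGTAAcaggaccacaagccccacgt
A D-box occurred in 15.1% of the same windows around 4306 tested symbols. E-boxes (48.9%) and ROREs (60.1%) were common there. In these windows Dbp held 3 ROREs and no CACGTG, Sphk2 held 1 RORE, and Hlf held an E-box and a RORE. Nfil3 held an E-box at −700 and, besides the RORE at −12, another at −1764. Tef held E-boxes too.

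Time points 12 hr apart were contrasted within the limma fit, so that peak and trough were not picked from the values. In ZT8 minus ZT20, Dbp was higher by 3.55 ± 0.440 (SE, log2, adjusted p = 0.00633) and Tef by 2.05 ± 0.304 (adjusted p = 0.0105), where 0.414% of the tested symbols were higher. Nfil3 fell by 1.67 ± 0.232 in the same contrast (adjusted p = 0.0078), where 1.16% were lower. The differences of Sphk2 (0.97 ± 0.271, adjusted p = 0.129) and Hlf (0.25 ± 0.358, adjusted p = 0.896) did not pass. Leaving 1 library of a contrasted time out kept every direction but raised the adjusted p of Tef to between 0.0603 and 0.0897 (either library of ZT8 or ZT20), that of Dbp to 0.054 and 0.0682 (replicate 1 of ZT8 or ZT20), and that of Nfil3 to between 0.0629 and 0.0817 (ZT8 replicate 1 or either library of ZT20).

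In ZT0 minus ZT12, Dbp was lower by a log2 difference of −2.46 ± 0.440 (limma, adjusted p = 0.0141) and Tef by −2.45 ± 0.304 (adjusted p = 0.00283), where 2.85% of the symbols were lower and 1.59% higher. The call of Dbp was lost without any 1 library of ZT0 or ZT12 (adjusted p between 0.0531 and 0.138), while Tef passed without each. Nfil3 (0.64 ± 0.232, adjusted p = 0.161), Hlf (−0.94 ± 0.358, adjusted p = 0.192) and Sphk2 (−0.49 ± 0.271, adjusted p = 0.38) did not pass. In ZT4 minus ZT16, none of the 5 passed by limma, where 1.34% of the symbols were higher and 0.764% lower, although Dbp and Sphk2 had an unadjusted p under 0.05. The largest differences there were those of Dbp (1.47 ± 0.440, adjusted p = 0.12) and Sphk2 (0.95 ± 0.271, adjusted p = 0.102). That of Dbp depended on the ZT4 libraries, with 0.60 (limma, adjusted p = 0.413) without replicate 1 and 2.35 (adjusted p = 0.00968) without replicate 2. The median of all tested symbols was 0.20 in that contrast, and with libraries rescaled by the median ratio the difference of Dbp was 1.28 and that of Sphk2 0.74.

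**Figure D2:**
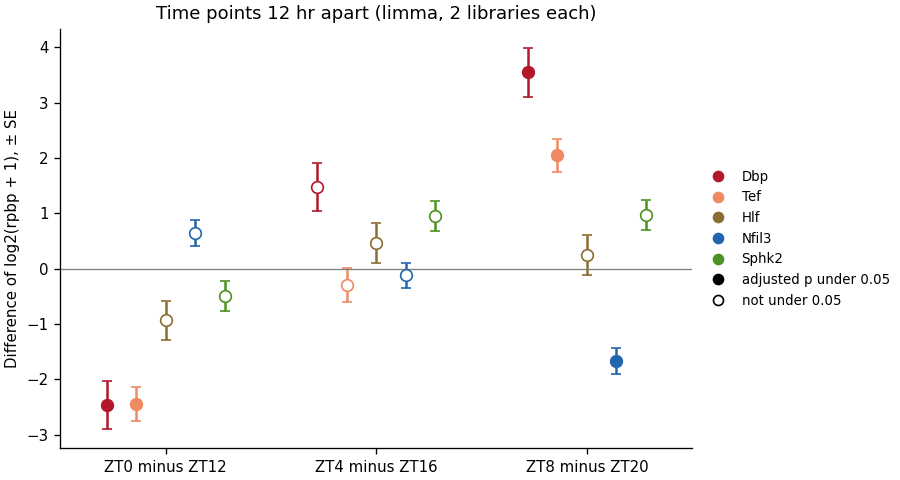
Difference of log2(rpbp + 1) ± SE (limma) between time points 12 hr apart for the 5 genes, with filled points at an adjusted p under 0.05. Dbp and Tef are lower at ZT0 than at ZT12 and higher at ZT8 than at ZT20, and Nfil3 is lower at ZT8 than at ZT20.

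ZT8 differed from most other times in ways that touch these results. The 2 libraries of ZT8 and the 2 of ZT20 were run in 2 lanes and the other 8 in 1, so lane number cannot be told apart from these times. Within the 4 time points of 1 lane, Tef still differed by limma's F-test (adjusted p = 0.0377), while Dbp (0.0791), Sphk2 (0.128) and Nfil3 (0.339) did not pass. In ZT8 replicate 1 the macrophage marker Emr1 was at 17.3 rpbp (3.1 to 5.1 in the other 11 libraries) and the Kupffer cell marker Clec4f at 1.6 (6.5 to 22.7). The other markers of that list, Cd68 (3.3) and Csf1r (7.0), lay within the range of the other libraries. So did the sum of the list, 29.2 (14.6 to 37.6). The 4 markers listed for lymphocytes and NK cells summed to 8.2 (2.6 to 5.5). Of these, Ptprc, a marker of leukocytes in general, gave 6.7, and Cd3e, Cd79a and Ncr1 gave 0.3, 1.0 and 0.2. The endothelial markers summed to 20.4 (8.1 to 17.2). The part of these markers in the results was not tested, but without this library Dbp, Tef and Sphk2 were still called rhythmic and the limma contrast ZT8 minus ZT20 was 3.43 for Dbp (adjusted p = 0.054), 2.09 for Tef (adjusted p = 0.0685) and −1.54 for Nfil3 (adjusted p = 0.0629), with 1 library of ZT8 assumed to vary like the rest. Hepatocyte markers were high in every library (summed 329 to 1192 rpbp for 5 genes), and summed rpbp per library lay between 118342 and 160545. The study's methods give more mapped reads for the libraries of ZT8 and ZT20 than for the others before scaling, so values there rest on more reads. In whole liver fewer cells of a type and less nascent RNA per cell cannot be told apart.

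To ask whether 2 of the genes differed in their daily pattern, the log2 ratio of their values within a library was tested for a 24-hr rhythm in 7 pairs, with permutation p-values adjusted over the 7. Such a ratio does not depend on how a library was scaled, apart from the 1 rpbp added. Of the 7 ratios, 6 were rhythmic. Each of these 6 holds Dbp or Tef, which had the widest fitted daily changes, and the pair without either, Nfil3 and Hlf, did not pass. Ratios to other symbols were not tested, so no share over all symbols stands beside this count.

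The ratio of Nfil3 to Dbp had the widest daily range. It was 2.20 and 1.69 (log2, series 1 and 2) at ZT0, −1.12 and 1.18 at ZT4, −3.84 and −3.34 at ZT8, −0.87 and −1.46 at ZT12, 1.501 and 1.746 at ZT16, and 1.54 and 1.72 at ZT20. Repressor nascent RNA thus exceeded that of Dbp at ZT0, ZT16 and ZT20 and lay below it at ZT8 and ZT12 in both series, with ZT4 divided between the series. F24 of this ratio was 0.792 (adjusted permutation p = 0.0007), and the fitted peak of Nfil3 followed that of Dbp by 12.2 hr.

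The ratio of Nfil3 to Tef went from a mean of 0.85 at ZT0 to −3.65 at ZT8 (F24 = 0.776, adjusted permutation p = 0.00227). It was still −2.25 at ZT12, where that of Nfil3 to Dbp was −1.16. The ratio of Nfil3 to Hlf had its lowest mean, −1.53, also at ZT8, but did not pass (F24 = 0.485, adjusted permutation p = 0.0512). It passed without ZT4 replicate 2, ZT16 replicate 2 or either library of ZT20 (adjusted permutation p between 0.0328 and 0.0433).

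Dbp and Tef differed in their pattern although both were highest at ZT8. Their ratio was near 0 at ZT8 (0.10 and −0.22 in the 2 series) and lowest at ZT16 (−1.96 and −1.98), where Tef was still declining and Dbp was back at its low level. F24 of the ratio was 0.894 (adjusted permutation p = 0.00063), the highest of the 7 pairs, and the fitted peak of Dbp preceded that of Tef by 1.90 hr. Hlf differed from both, since the ratio of Dbp to Hlf (F24 = 0.875, adjusted permutation p = 0.0007) and that of Tef to Hlf (0.815, 0.00327) were rhythmic, with highest means of 2.06 and 2.12 at ZT8.

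**Figure D3:**
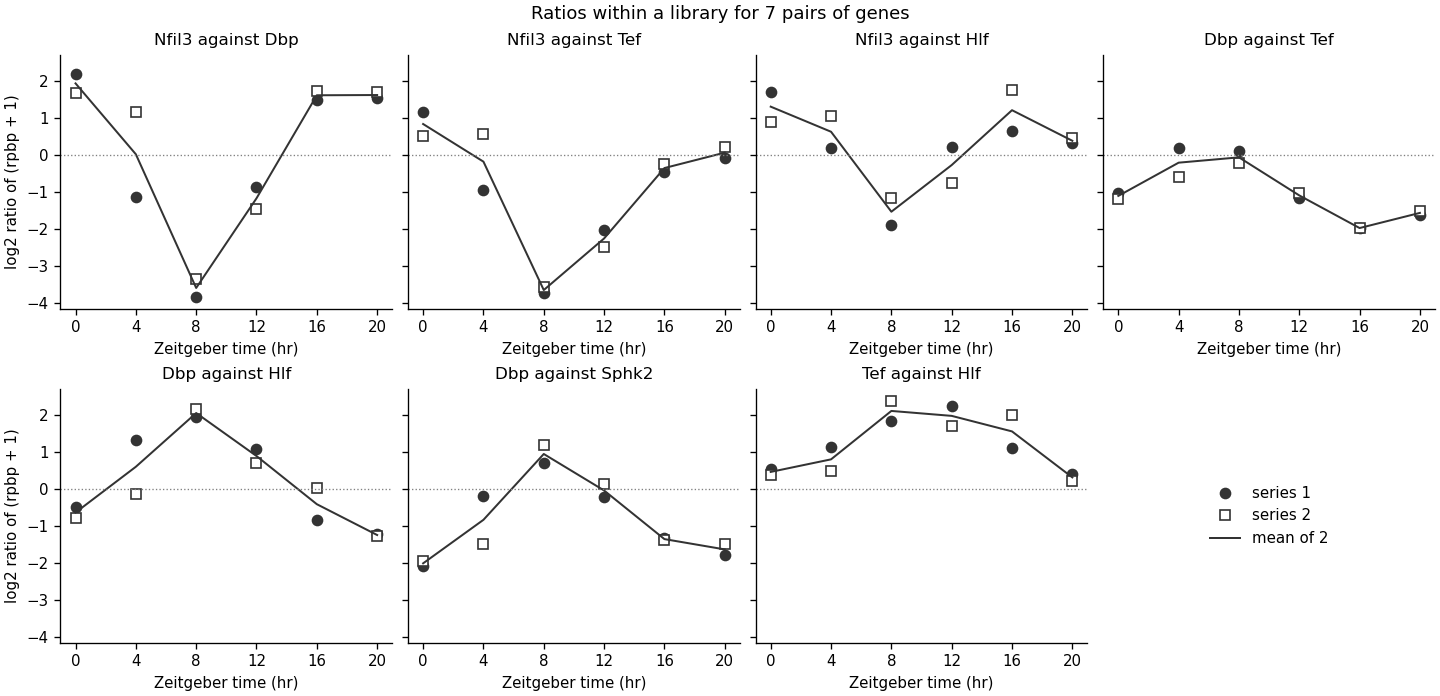
log2 ratio of (rpbp + 1) of 2 genes within a library against zeitgeber time for 7 pairs, with filled circles for series 1, open squares for series 2, a line through the mean and a dotted line at equal level. The ratios of Nfil3 to Dbp and to Tef fall to means of −3.59 and −3.65 at ZT8, and that of Dbp to Tef is lowest at ZT16.

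Sphk2 lies on the reverse strand at chr7:52965631-52973285 (mm9), so that its 3′ end faces that of Dbp with 109 bases between them in the table. In GENCODE M1, Sphk2 reaches from 52964837 and Dbp ends at 52965525, so that the annotated transcripts overlap there. Reads were counted without regard to strand, so reads from either strand over shared or flanking sequence cannot be told apart. In series 1 Sphk2 was at 12.8, 26.4, 30.3, 21.5, 10.7 and 13.1 rpbp from ZT0 to ZT20. In series 2 it was at 16.7, 19.0, 18.1, 20.5, 11.5 and 10.1 rpbp. The libraries of ZT8, ZT4 and ZT12 overlapped in turn, as did those of ZT0, ZT20 and ZT16, and the first 3 times stood above the last 3.

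F24 of Sphk2 was 0.719 (permutation p = 0.00355, adjusted p = 0.114), with 2.18 times between the highest and the lowest time-point mean. Its fitted peak-to-trough difference was 1.16 ± 0.218 (SE, log2) and its peak fell at 7.12 ± 0.721 hr (SE), 1.47 hr ahead of Dbp. Its profile was not proportional to that of Dbp. The ratio of Dbp to Sphk2 had a mean of −2.004 at ZT0 and of 0.95 at ZT8 (F24 = 0.815, adjusted permutation p = 0.000892). The ratio bears on proportional values only. Whether reads from Dbp were added to a steady level of Sphk2 was not tested. Sphk2 at its lowest, 10.1 rpbp, was above Dbp at ZT0, ZT16 and ZT20 (2.3 to 3.8 rpbp).

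Neither gene beside the pair was called rhythmic, but Car11 was too low to be tested. Car11, a carbonic anhydrase-related gene 570 bases before Dbp, stayed between 0.2 and 0.8 rpbp and was below the signal threshold. Rpl18, a ribosomal protein gene on the forward strand whose span overlaps that of Sphk2, ranged from 4.3 to 6.9 rpbp and was not called (F24 = 0.256, permutation p = 0.255).

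**Figure D4:**
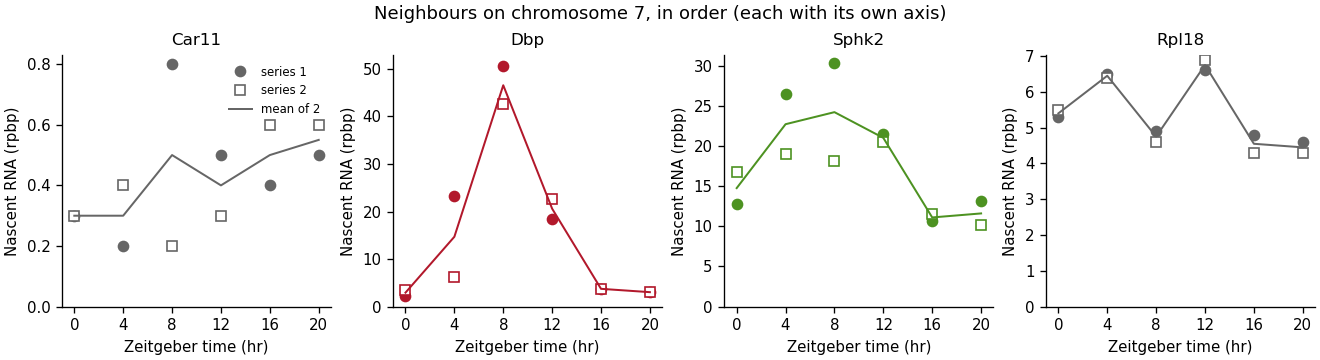
Nascent RNA (rpbp, each panel with its own axis from 0) against zeitgeber time for the neighbours Car11, Dbp, Sphk2 and Rpl18 in chromosome order, with filled circles for series 1, open squares for series 2 and a line through the mean. Car11 stays below 1 rpbp and Rpl18 between 4.3 and 6.9 rpbp, while Dbp and Sphk2 are highest at ZT8.

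Of the other neighbours, the clone AK045688 ends 203 bases before Tef in the table. It was below the threshold, at 1.4 and 2.2 rpbp at ZT8, 1.4 and 2.1 at ZT12, and 0.1 to 0.9 at the other times. Tob2, on the other side of Tef, Mmd beside Hlf and Auh beside Nfil3 were tested and not called (F24 = 0.107, 0.449 and 0.459).

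The symbols whose log2 values were most like those of each gene over the 12 libraries are given as a description, since all share the same libraries and times. Tef was closest to the clock repressor gene Per3 (Pearson r = 0.956), then to Pitpnc1, a phosphatidylinositol transfer protein gene (0.946), the F-box gene Fbxo22 (0.944) and Mettl7a (0.918), with peaks between 9.94 and 10.8 hr on linear values. Among the symbols closest to Dbp were Lrp4 (r = 0.917), Narf (0.915) and Ptplad1 (0.901).

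Nfil3 was closest to 0610012D14Rik (r = 0.924), to Cbs, which encodes cystathionine beta-synthase (0.912), to the cGMP phosphodiesterase gene Pde9a (0.903) and to Ddc, the aromatic amino acid decarboxylase gene (0.894). Sphk2 was closest to Plcl2 (r = 0.928), the ubiquitin ligase gene Hectd3 (0.908), 9030617O03Rik (0.908) and Nr1d1, which encodes REV-ERBα (0.906). The 4 closest to Hlf, 1700109H08Rik (0.918), the NF-κB inhibitor gene Nfkbia (0.911), D5Ertd593e (0.911) and Stbd1 (0.907), were not rhythmic themselves, and the last 2 are 1 locus. Among the 5 genes, r was 0.887 for Dbp and Tef, 0.840 for Dbp and Sphk2, and −0.857 for Dbp and Nfil3.

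Of 10 listed genes that act on or answer to E-boxes, 9 were tested and 8 were rhythmic, against 15.1% of all tested symbols. Their median F24 was 0.673, against 0.222 over all tested symbols. With the adjusted permutation p, 3 of the 9 were called. The activators had their highest means where Dbp and Tef were low, Arntl (BMAL1) with 9.75 rpbp ± 0.919 at ZT20 against 0.80 ± 0.141 at ZT8 and Npas2 with 8.65 ± 2.47 at ZT0 against 0.05 ± 0.071 at ZT12 (SD, n = 2). Per3 shared its lowest time, ZT0, with Dbp and Tef and was at 22.5 rpbp ± 0.141 at ZT12. Bhlhb2 was tested and not called (F24 = 0.031).

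Of the receptor genes that act on ROREs, the repressors Nr1d1 and Nr1d2 had their highest means at ZT8, the time of the Nfil3 minimum, with 34.5 rpbp ± 8.70 and 14.2 ± 3.96 (SD, n = 2). Both were strong by the rhythm rule. Nr1d1 at ZT4 (37.6 and 30.6 rpbp) overlapped its ZT8 libraries (40.6 and 28.3), although Nfil3 was at 10.1 and 15.3 rpbp at ZT4. Its maximum could therefore not be placed at ZT8 alone. The activator Rora, called close to the limits (F24 = 0.493, permutation p = 0.0497), was highest at ZT4 (12.2 ± 0.212). In ZT8 minus ZT20, Nr1d1 was higher by 3.66 (log2, limma, adjusted p = 0.00197) and Nr1d2 by 2.79 (adjusted p = 0.00766).

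Among 19 genes named as targets of PAR bZIP factors or NFIL3 in liver, 15 were tested and 7 were rhythmic (15.1% of all tested symbols), with a median F24 of 0.480 (0.222). With the adjusted permutation p, 0 of the 15 were called. By the F-test of limma 8 of the 15 differed between times (7.65% of all tested symbols). The fitted peaks of Upp2, a uridine phosphorylase gene (10.1 ± 0.728 hr, SE), and Por, the electron donor of cytochrome P450 enzymes (10.8 ± 0.460 hr), lay on either side of that of Tef (10.5 ± 0.416 hr). Upp2 went from 4.35 rpbp ± 1.48 at ZT0 to 123 ± 13.5 at ZT12, and Por from 4.20 ± 0.990 to 54.2 ± 7.14 at the same times (SD, n = 2). Both passed in ZT0 minus ZT12 by limma, with −4.56 and −3.41 (log2, adjusted p = 0.00283 for each).

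Alas1, which starts heme synthesis, peaked at 13.0 ± 0.947 hr and Cyp7a1, which starts bile acid synthesis, at 13.7 ± 0.635 hr (SE). The nuclear receptor gene Ppara and the coumarin hydroxylase gene Cyp2a5 had earlier fitted peaks, at 7.67 ± 1.08 and 6.29 ± 0.885 hr. Aox1, an aldehyde oxidase gene, was the only called target with its peak in the other 12 hr of the day, at 1.42 ± 0.894 hr. By limma the fitted cosine passed for Cyp7a1 (adjusted p = 0.0187). It did not pass for Alas1 (0.0977), Ppara (0.146), Cyp2a5 (0.0805) or Aox1 (0.0837), so these peak times are uncertain. Nr1i3, which encodes the receptor CAR, was not called rhythmic (F24 = 0.324, permutation p = 0.175), nor were Cyp2b9, Cyp2c37, Cyp2c50 and Cyp2c54. Cyp4a10, Cyp4a14 and Fmo5 were not called rhythmic either but differed between times by the F-test of limma (adjusted p = 0.021, 0.0291 and 0.0483). Members of the Cyp2a, Cyp2b, Cyp2c and Cyp4a groups have close paralogs, so their unique reads are uncertain.

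Of 21 other bZIP genes, 20 were in the table, 15 were tested and 3 were rhythmic (Cebpa, Crem and Nfe2l2), against 15.1% of all tested symbols, and none was strong. The fitted peak-to-trough differences of these 3 were 0.76 to 0.90 (log2), below those of Dbp, Tef, Nfil3 and Sphk2. By the F-test of limma 1 of the 15, Cebpb, passed (adjusted p = 0.0124), where 7.65% of all tested symbols did.

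**Figure D5:**
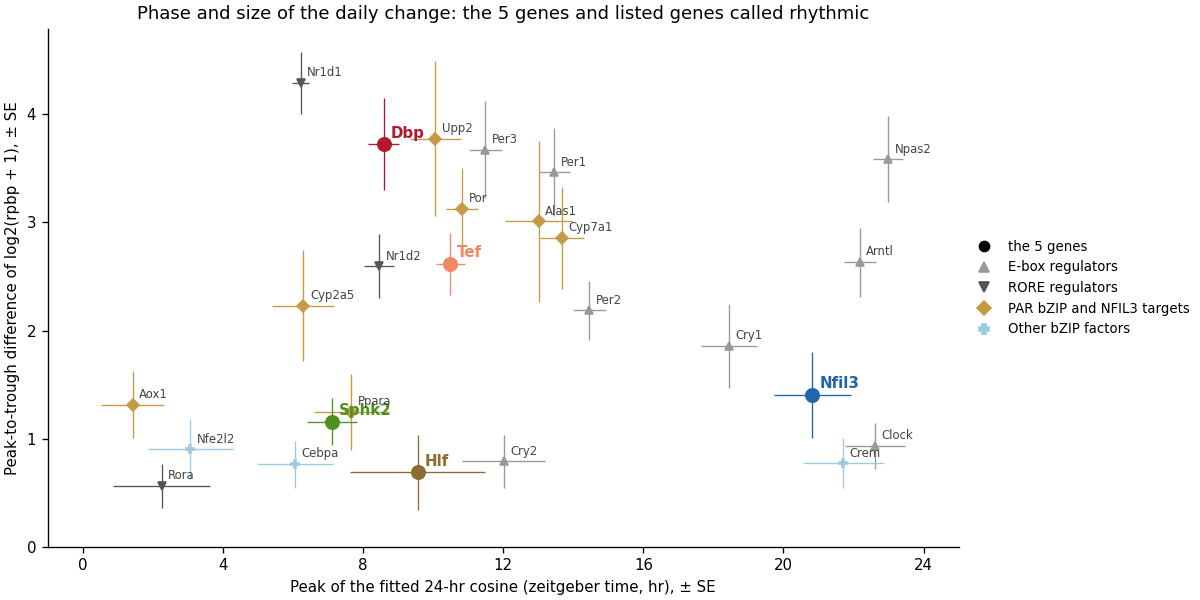
Peak-to-trough difference of log2(rpbp + 1) against the peak time of a fitted 24-hr cosine, each ± SE, for the 5 genes (circles) and listed genes called rhythmic. Dbp (3.72 at 8.59 hr) and Tef (2.62 at 10.5 hr) lie among Upp2, Por and Per3, Sphk2 and Hlf have smaller differences, and Nfil3 (1.40 at 20.8 hr) lies on the other side of the day.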

How the data were processed

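Nascent RNA was profiled in 12 mouse liver libraries, which were assigned to 6 time points and 2 replicate series from their labels. The authors mapped the reads to mm9 with TopHat (base calls by CASAVA 1.7, per the submitters' processing notes), counted reads on all exons of a symbol without regard to strand, and divided by exon length and depth to give the deposited signal in rpbp, rounded to 1 decimal. The authors also deposited an F24 score (a fraction of variance), a phase and a p-value per symbol, and these 3 columns were not used. The 27919 blank lines were dropped.

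Of 21490 symbols, the tests took the 6284 whose highest library exceeded 6 rpbp, and p-values were adjusted over all of them. F24 was computed on linear values with 100000 permutations. Limma 3.58.1 (R 4.3.3) was run on log2(rpbp + 1), and other steps in Python 3.11.15 with numpy 2.4.6 and pandas 2.3.3. Alternatives covered filters, scaling, exon GC content (97.4% of the tested symbols), lanes, replicate block, pseudocounts and single libraries. The scripts were tested on simulated data. Text names the 5 genes, listed genes, the 4 likest symbols and the neighbours of each gene. Some results under this rule are not reported here. The genes and lists were chosen with earlier results of these data known.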

Additional observations from a re-analysis of the deposited data

How the results depend on the processing

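Of the 5 genes, 4 were rhythmic, and between 3 and 4 were when each library was left out in turn. With the adjusted permutation p 1 remained (Dbp), in series 1 alone 0 and in series 2 alone 1 (Dbp), where 6 values cannot give a permutation p below 0.0167. The limma F-test passed 3 genes, 3 without any single library, and 1 within the time points of 1 lane. Of 15 contrasts of genes, 5 passed, 3 with no filter on low values, and 2 to 6 without single libraries, with 2 without ZT8 replicate 1 or ZT20 replicate 1 and 3 without ZT20 replicate 2. The rhythmic ratios numbered 6 of 7, 6 or 7 without single libraries, and 0 in each series alone. Of the listed genes 22 were called, and 6 with the adjusted permutation p. In ZT4 minus ZT16 the sign of differences that did not pass turned without single libraries, with a range of −0.77 to 0.18 for Tef and −0.40 to 0.16 for Nfil3. With the GC trend removed, Sphk2 passed the limma F-test (adjusted p = 0.0293), ZT8 minus ZT20 (1.11, adjusted p = 0.0314) and the adjusted permutation p (0.0299), and Tef passed the last (0.0442). Tef also passed it above 12 rpbp (0.0471) and without ZT4 replicate 2 (0.0343) or ZT8 replicate 2 (0.0482). The cause was not tested. Over all tested symbols, 951 were called rhythmic, 2211 with no filter (of 20756), 508 above 12 rpbp (of 2858), 44 with the adjusted p, and 260 and 171 in series 1 and 2 alone. The limma F-test called 481 symbols, 133 with no filter, 120 within the times of 1 lane and 170 to 638 without single libraries. With no filter, ZT4 minus ZT16 called 24 symbols against 132 (84 above 12 rpbp), ZT8 minus ZT20 45 against 99 and the cosine 101 against 163 (306 with the GC trend removed). Without single libraries these ranged from 22 to 253, 4 to 166 and 63 to 236, and ZT0 minus ZT12 (279) from 26 to 388.

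With a replicate block 3 of the 5 genes were called rhythmic, since Nfil3 was at a permutation p of 0.0522, and Dbp lost its adjusted permutation p (0.0931). Calls of the 5 genes by the limma F-test and the 3 contrasts, and those of the 7 ratios, did not change. Replicate differences of time points correlated between −0.12 and 0.32 (15 pairs, 5 above 0.1), with the highest for ZT8 and ZT20. Some times may thus share a difference between the series, and the labels do not say what a series shares. The table holds scaled values and no counts, so no counting interval is given, and with 2 libraries a time the precision of each mean is low.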

Other observations

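The 2 libraries of ZT4 differed in several clock genes. Replicate 1 had more Dbp (23.2 against 6.2 rpbp), Tef (20.1 against 9.9) and Per3 (5.9 against 0.9), and less Arntl (3.2 against 9.4), Npas2 (0.8 against 3.2) and Nfil3 (10.1 against 15.3). On the log2(rpbp + 1) scale the difference of Dbp, 1.749, was larger in size than in 99.6% of the tested symbols after the median was removed, and that of Rpl18, 0.02, than in 13.6%. At ZT16 the PAR bZIP target Upp2 was at 7.2 and 37.6 rpbp, and Tef at 17.3 and 17.9. These genes were chosen after their values were seen.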
